A study of Bos taurus with 27 samples.

Results

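The genes ENSBTAG00000007687, ENSBTAG00000014890 and ENSBTAG00000000369 have low counts and were followed through 27 cattle embryos of different size. They are 3 of the 19994 Ensembl identifiers counted, and all 3 were among the 11919 genes that passed a filter on low counts over all embryos. That filter asks for a minimum count in as many embryos as the smallest group holds. This was 6 over all embryos and 10 in the 21 short embryos alone, where ENSBTAG00000007687 did not pass. The 3 genes had been chosen by their own counts, as genes near zero in small embryos and clearly counted in most long ones. Their rise with size is therefore described here and not tested. Gene names are not in the files, and a RefSeq table of cattle genes held 0 of the identifiers, so no gene product, position or sequence is given for them.

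Around the middle of the third week of pregnancy the cattle embryo lies free in the uterus, enclosed by trophectoderm, the outer layer that later forms the fetal part of the placenta. This layer grows from a sphere through an ovoid form into a long filament. During that growth it secretes interferon tau, the signal by which ruminant embryos prolong the life of the corpus luteum. Embryos of the same age can differ widely in length, and so a set of single embryos collected on one day also samples the course of elongation.

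All embryos were collected on day 15 of pregnancy, with 1 library of polyadenylated RNA from each. Dams had received an omega-3 or an omega-6 diet, and embryos were classed as long or short. There were 6 long omega-3 embryos (size numbers 10.5 to 20.3, 4 lettered m and 2 lettered f), 10 short omega-3 embryos (0.4 to 9.5, 6 m and 4 f) and 11 short omega-6 embryos (1.4 to 7.7, 5 m and 6 f). No long omega-6 embryo was analysed here. The size number and the letter come from the sample titles, which state neither a unit nor a meaning. Total counts ran from 17931620 to 29868584, so 1 count was worth 0.0558 CPM (the count over the file's total, scaled to 1000000 counts) in the shallowest library and 0.0335 CPM in the deepest. Dams are not named, so embryos may share one, and a p-value speaks of the spread among the embryos sampled. RNA came from whole embryos: a larger share of cells that express a gene and more RNA per cell cannot be told apart. Libraries 22 and 25, both short omega-6, stood apart: over the tested genes their log2(CPM + 0.5) correlated with the median of the other libraries at r = 0.945 and 0.95, against 0.968 to 0.995 for each of the 25 others. Embryo 07, long and lettered f, went against its letter, with 41.1 CPM of ENSBTAG00000045750 where the 15 m embryos had 10.5 to 78.1 CPM and the 11 other f embryos at most 0.15 CPM. The tests of diet and of slope are also given without 22 and 25, that of diet at equal size also without 07, and the test of m against f without 07 and without 22 and 25.

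ENSBTAG00000007687 was the member closest to a switch. In the 10 embryos of size number 2.6 or less it had 0 to 8 counts, with 0 counts in 3 of them and at most 3 counts in 8. Its level there was 0 to 0.28 CPM, with a median of 0.1. A count of 0 in embryo 13 (size number 1.3) allows up to 0.113 CPM (3 counts of the total; counting error only). The gene was thus at the limit of detection in most of the smallest embryos. In the 8 embryos of 3.7 to 6.4 the level ran from 0 to 1.54 CPM, with a median of 0.28. The 3 largest short embryos had 2.98 CPM (size number 7.7), 1.77 CPM (8) and 7.19 CPM (9.5). In order of size, the 6 long embryos had 4.3, 5.88, 10.8, 7.86, 4.13 and 2.63 CPM, from 56 to 244 counts each. All 10 of the smallest embryos thus lay below all 6 long ones, and 19 of the 21 short embryos did so. The 2 that did not were embryos 26 and 11, at size numbers 7.7 and 9.5. The mean of the long embryos, 5.93 ± 2.97 CPM (SD, n = 6), was 4.88 times that of short omega-3 embryos (1.21 ± 2.19, n = 10) and 14.6 times that of short omega-6 embryos (0.41 ± 0.86, n = 11). Both ratios hung on the largest short embryo of each diet: without embryo 11 the first was 10.8, and without embryo 26 the second was 39.9. Without long embryo 16 they were 4.08 and 12.2.

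ENSBTAG00000014890 was low but not near zero in small embryos. It was counted in all 27 embryos, with 11 to 51 counts in the 10 smallest, or 0.43 to 2.09 CPM with a median of 1.05. From 3.7 to 6.4 it ran from 1.6 to 8.85 CPM (median 5.32), and the 3 largest short embryos had 9.46, 4.45 and 18.4 CPM in order of size. Embryo 22, at 3.7, was already above several larger embryos. The long embryos had 45.7, 9.4, 118, 36.6, 12.9 and 9.59 CPM in order of size, from 204 to 2663 counts. The highest long embryo was therefore 12.5 times the lowest, against 4.11 times for ENSBTAG00000007687 and 7.58 times for ENSBTAG00000000369. Long embryos 06, 04 and 16 stood well above the other 3. The long mean of 38.7 ± 41.7 CPM (SD, n = 6) was 7.25 times that of short omega-3 embryos (5.34 ± 5.24, n = 10). Without embryo 16 it was 4.28 times as high. Relative to short omega-6 embryos (2.47 ± 2.72 CPM, n = 11) the long mean was 15.6 times as high, and 9.23 times without embryo 16. Again 19 of 21 short embryos lay below every long one, and embryos 26 and 11 were the exceptions.

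ENSBTAG00000000369 had the smallest proportional rise, with a long mean 14.8 times that of the 10 smallest embryos, against 34.7 times for ENSBTAG00000014890 and 58.1 times for ENSBTAG00000007687. It was counted in all 27 embryos, but in the 10 smallest with only 2 to 26 counts, or 0.075 to 1.07 CPM with a median of 0.39. Its range from 3.7 to 6.4 was 0.12 to 2.29 CPM (median 0.49), and the 3 largest short embryos had 1.81, 2.11 and 4.55 CPM. In order of size the long embryos had 1.96, 7.57, 14.9, 6.71, 3.29 and 6.3 CPM, from 47 to 336 counts. Long embryo 06 (size number 10.5), at 1.96 CPM, was exceeded by 3 short embryos, numbers 03, 02 and 11, so the classes overlapped more than for the other 2 genes. The long mean of 6.78 ± 4.51 CPM (SD, n = 6) was 4.74 times that of short omega-3 embryos (1.43 ± 1.3, n = 10) and 14.2 times that of short omega-6 embryos (0.48 ± 0.48, n = 11). Without embryo 16 these ratios were 3.61 and 10.8. Without the largest short embryo of each diet they were 6.26 and 19.7.

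**Figure D1:**
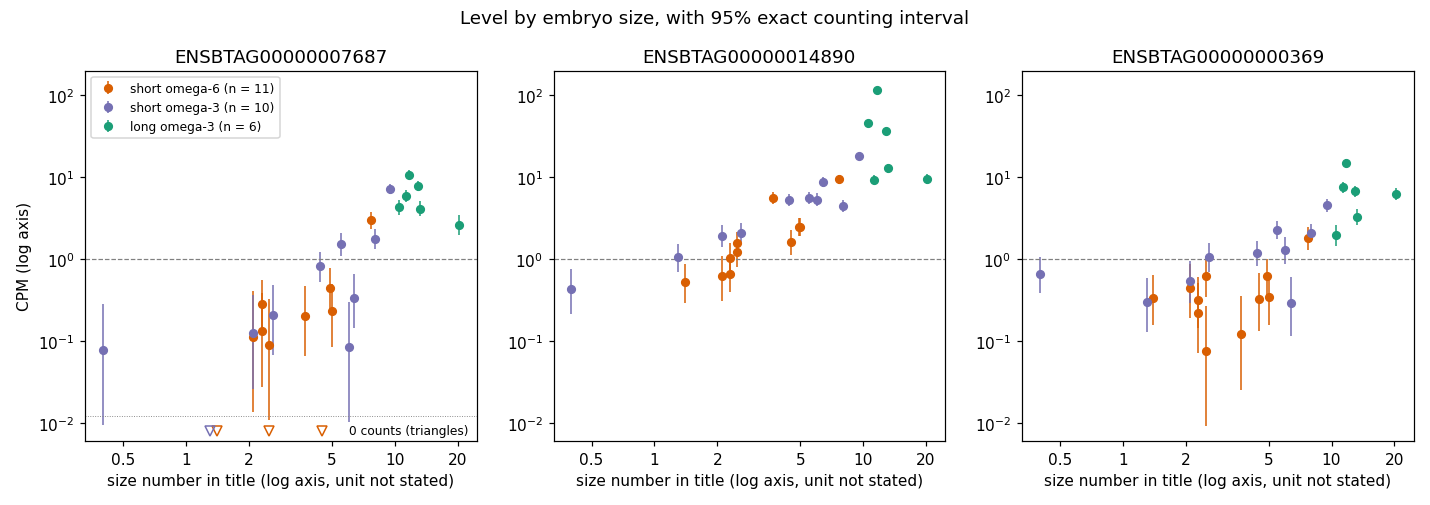
Level of each gene (CPM, log axis) against the size number (log axis), 1 point per embryo, coloured by group, with 95% exact binomial intervals that cover counting error only; hollow triangles mark 0 counts and the dashed line 1 CPM. ENSBTAG00000014890 is above 0.4 CPM in every embryo, while ENSBTAG00000007687 has 0 counts in 4 short embryos and at least 2.63 CPM in all 6 long ones.

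Within the long class the levels did not increase with size. The largest embryo (01, size number 20.3) had the lowest ENSBTAG00000007687 of the 6 and the second lowest ENSBTAG00000014890. Spearman's rho with size over the 6 long embryos was -0.49, -0.31 and -0.029 for ENSBTAG00000007687, ENSBTAG00000014890 and ENSBTAG00000000369, a description over 6 values. Over all 27 embryos the values were 0.836, 0.923 and 0.743, and these are part of what chose the genes. Embryo 16 (size number 11.7) was the highest of the 27 for all 3 genes.

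The size number at which each gene came on was read at 1 CPM. ENSBTAG00000014890 reached 1 CPM in 23 of 27 embryos, the smallest at size number 1.3 and the largest embryo without it at 2.3. ENSBTAG00000000369 reached it in 13 embryos, first at 2.6, and was last below it at 6.4. For ENSBTAG00000007687 the number was 10 embryos, first at 5.5 and last below at 6.4. At size numbers of 7.7 and above, all 9 embryos had at least 1 CPM of each gene. On this scale the 13 embryos with some but not all genes on followed a single order. None of the 3 genes was on in 4 embryos, ENSBTAG00000014890 alone in 10, ENSBTAG00000014890 with ENSBTAG00000000369 in 3, and all 3 in 10.

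CPM is not scaled to transcript length, and no lengths were used here, so CPM levels do not rank genes against each other. Each gene was therefore also set against its own median in the long embryos (5.09 CPM for ENSBTAG00000007687, 24.8 for ENSBTAG00000014890 and 6.5 for ENSBTAG00000000369). At 10% of that median ENSBTAG00000000369 came first, already in the smallest embryo (17 counts, 10.1% of the long median), which was barely past that level. ENSBTAG00000014890 followed at 3.7 and ENSBTAG00000007687 at 4.4. The order seen at 1 CPM was broken by 2 embryos, 12 and 14. At 50% of the median, a level added after the values were seen, ENSBTAG00000007687 came first, in embryo 26 at 7.7, and both others at 9.5. Of the 4 embryos in which only some genes reached that level, 0 followed the order seen at 1 CPM. Of the other fixed levels, 10 counts kept the order seen at 1 CPM in all 15 embryos with some but not all genes on. With CPM on TMM-scaled totals, 1 CPM kept it in all 12 such embryos. The levels of 0.5 and 2 CPM did not keep it in every embryo. At 0.5 CPM ENSBTAG00000000369 was on at 0.4, in embryo 14, and ENSBTAG00000014890 first at 1.3, and 15 of the 16 embryos with some but not all genes on followed the order seen at 1 CPM. At 2 CPM 9 of 11 such embryos did, and embryos 06 and 26 had ENSBTAG00000007687 on without ENSBTAG00000000369. The order among the genes thus depended on the level at which it was read.

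**Figure D2:**
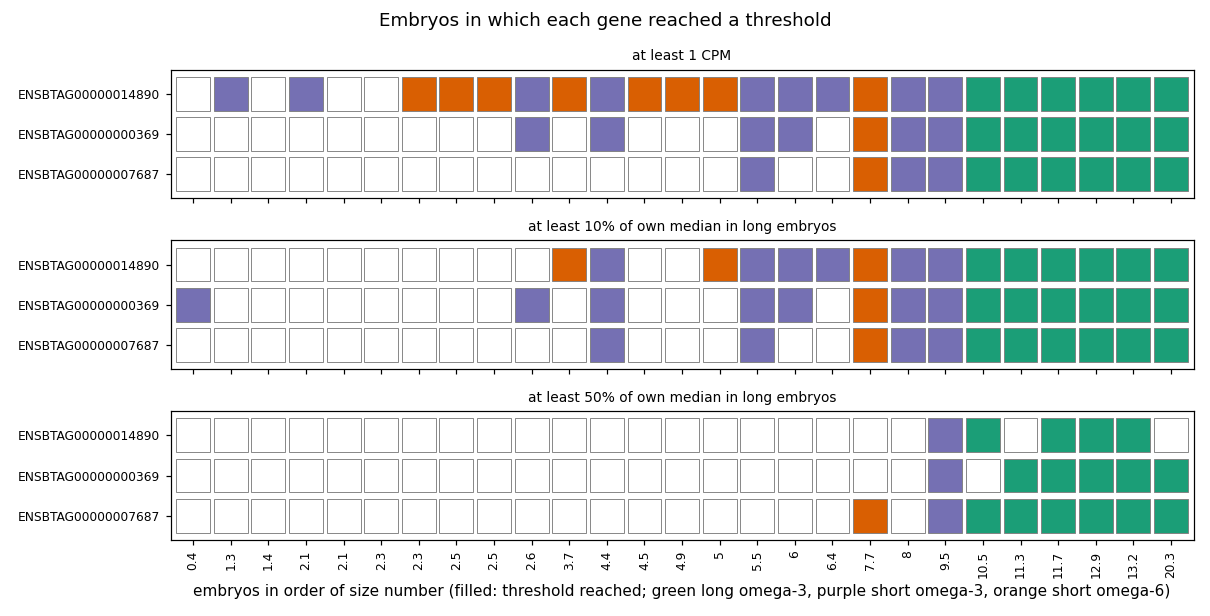
Embryos from left to right in order of size number, with a box filled where the gene reached the threshold named above each panel; colours give the group. Of the embryos with some but not all boxes filled, 13 of 13 have the rows nested from top to bottom at 1 CPM, 4 of 6 at 10% of each gene's long median and 0 of 4 at 50%.

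Short embryos of near size differed in their counts. Around size number 6, embryo 03 (5.5) had 41 counts of ENSBTAG00000007687, or 1.54 CPM (95% exact binomial interval 1.1 to 2.09). Embryo 15 (6) had 2 counts, or 0.084 CPM (0.01 to 0.302), and embryo 17 (6.4) had 8 counts, or 0.331 CPM (0.143 to 0.652). The first interval does not meet the other 2, although all 3 embryos are short omega-3. These intervals cover counting error only and leave out the spread between libraries and embryos. The genes also parted within an embryo. Embryo 17 had 8.85 CPM of ENSBTAG00000014890, more than any smaller embryo, beside 0.289 CPM of ENSBTAG00000000369. In omega-6 embryo 22 (size number 3.7) ENSBTAG00000014890 reached 5.54 CPM with 138 counts, while ENSBTAG00000007687 and ENSBTAG00000000369 had 5 and 3 counts.

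**Figure D3:**
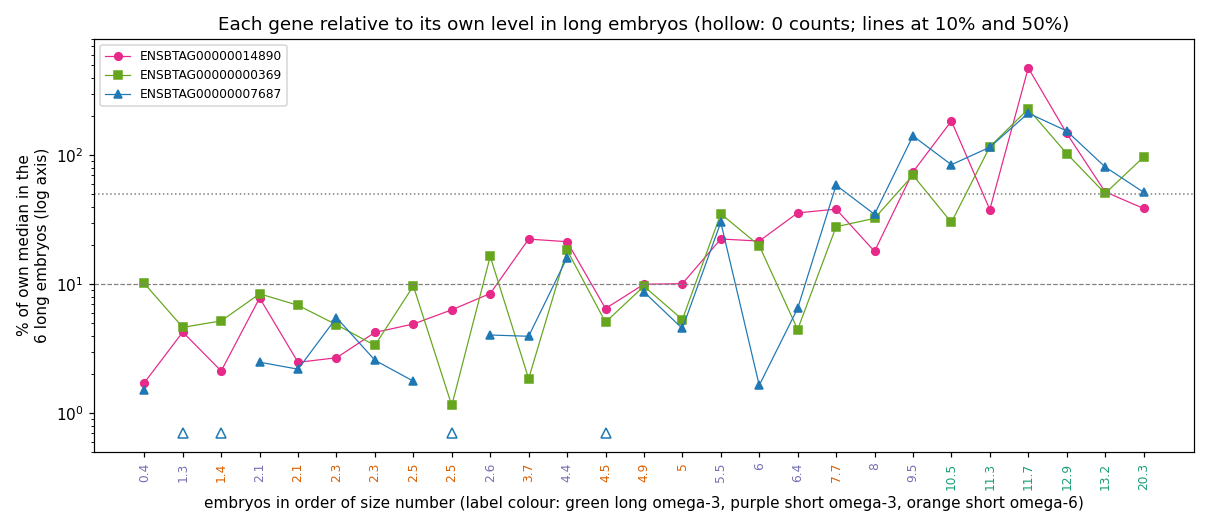
Each gene as a percentage of its own median in the 6 long embryos (log axis), with embryos in order of size number; hollow symbols mark 0 counts and lines 10% and 50%. Embryo 16 (size number 11.7) is at 476% for ENSBTAG00000014890, 229% for ENSBTAG00000000369 and 212% for ENSBTAG00000007687, and the genes part most visibly at size numbers 3.7, 6 and 6.4.

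Whether the genes behaved alike under both diets was asked next. In omega-6 embryos ENSBTAG00000007687 and ENSBTAG00000000369 were at 1 CPM or more in 1 of 11, embryo 26, the largest of them at 7.7. The next omega-6 embryo below it has size number 5. At 1 CPM the step under that diet thus lies between 5 and 7.7 and rests on embryo 26 alone. Other levels moved it. At 10 counts the first omega-6 embryo on was at 4.9 for ENSBTAG00000007687 and at 2.5 for ENSBTAG00000000369. At 2 CPM ENSBTAG00000000369 was on in 0 of 11 omega-6 embryos. In omega-3 embryos, read at 1 CPM, ENSBTAG00000000369 was first on at 2.6 and ENSBTAG00000007687 at 5.5, with both off again at 6.4. At the same level ENSBTAG00000014890 was first on at 1.3 in omega-3 and at 2.3 in omega-6 embryos. The latter was embryo 19, barely past the level with 1.05 CPM. At 0.5 CPM the sizes were 1.3 and 1.4, so this gap between diets depended on the level.

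Embryos of nearly equal size gave mixed pictures. At size number 2.1, ENSBTAG00000014890 had 1.94 CPM in the omega-3 embryo and 0.613 in the omega-6 embryo, and ENSBTAG00000000369 had 0.547 and 0.446. Omega-3 embryo 08 (4.4) exceeded omega-6 embryo 24 (4.5) in all 3 genes, with 0.819 CPM against 0 counts for ENSBTAG00000007687, 5.29 against 1.6 CPM for ENSBTAG00000014890 and 1.19 against 0.33 CPM for ENSBTAG00000000369. Between omega-6 embryo 26 (7.7) and omega-3 embryo 02 (8) the omega-6 embryo was higher for ENSBTAG00000007687 (2.98 against 1.77 CPM) and ENSBTAG00000014890 (9.46 against 4.45 CPM), and lower for ENSBTAG00000000369 (1.81 against 2.11 CPM). Over the 8 embryos of 3.7 to 6.4, the 4 omega-3 embryos had 0.29 to 2.29 CPM of ENSBTAG00000000369 and the 4 omega-6 embryos 0.12 to 0.63 CPM, so the ranges overlapped. The size numbers of these omega-3 embryos (4.4, 5.5, 6 and 6.4) were in 3 of 4 cases above those of all 4 omega-6 embryos (3.7, 4.5, 4.9 and 5), so size and diet cannot be told apart in these ranges. For ENSBTAG00000014890 these ranges were 5.29 to 8.85 and 1.6 to 5.54 CPM, with omega-6 embryo 22 alone reaching into the omega-3 range.

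The diets were compared at equal size with edgeR's quasi-likelihood test over the whole table, with log2 size number and letter in the model. All 6 long embryos are omega-3, and the 3 genes were chosen as clearly counted in long embryos. That choice can favour omega-3 for these genes in fits that include the long embryos, even with size in the model. With 27 embryos 0 of 11919 genes passed an adjusted p of 0.05 (0%; 1415 at an unadjusted p below 0.05; DESeq2 also called 0), the 3 genes included. The number at an unadjusted p below 0.05 hung on single embryos, from 482 without embryo 22 to 2064 without embryo 23, with 574 without the smallest embryo. ENSBTAG00000000369 was higher in omega-3 by 1.77 ± 0.46 on the log2 scale (SE; edgeR adjusted p = 0.414) and ranked 5 of 11919 by p. Earlier results of these data had already singled it out as a diet candidate, so this rank is no independent support. Its difference was 1.18 ± 0.45 with a curved size term and 0.99 ± 0.41 in the 19 embryos of size number 1.3 to 8, where both diets have embryos (edgeR adjusted p = 0.607 and 0.716). The differences of ENSBTAG00000014890 and ENSBTAG00000007687 were 0.98 ± 0.48 and 0.78 ± 0.66 (SE, edgeR adjusted p = 0.42 and 0.591). Approximate 95% intervals, 1.96 SE on each side and not adjusted for the number of genes, were 0.03 to 1.92 and -0.50 to 2.07. They are narrower than the test implies: the first leaves out 0 although its unadjusted edgeR p was 0.053. With each embryo left out in turn the differences of these 2 genes ran from 0.72 to 1.41 and from 0.57 to 1.46, the latter highest without embryo 26. With a curved size term they were 0.77 ± 0.53 and 0.65 ± 0.65 (SE). ENSBTAG00000014890 differed by 0.46 ± 0.32 in the 19 embryos of size number 1.3 to 8, where ENSBTAG00000007687 did not pass the low-count filter. Without embryos 22 and 25, the differences at equal size were 1.70 ± 0.49, 1.40 ± 0.49 and 0.75 ± 0.68 for ENSBTAG00000000369, ENSBTAG00000014890 and ENSBTAG00000007687 (adjusted p = 0.995 for each). Without embryo 07 they were 1.82 ± 0.47, 1.01 ± 0.48 and 0.83 ± 0.67 in the same order of genes (edgeR adjusted p = 0.367, 0.374 and 0.548).

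Among the 21 short embryos alone, diet gave 0 calls in 11534 genes (0%; edgeR, 814 at an unadjusted p below 0.05 and 338 without the smallest embryo; DESeq2 0). ENSBTAG00000000369 differed by 1.33 ± 0.43 and ENSBTAG00000014890 by 0.63 ± 0.31 toward omega-3 (SE, edgeR adjusted p = 0.567 for both). Without omega-6 embryos 22 and 25 the difference of ENSBTAG00000014890 was 1.02 ± 0.25, with the smallest p of all genes and still no call (adjusted p = 0.9998). ENSBTAG00000007687 did not pass the low-count filter in the short embryos. In the fit without that filter it differed by 0.69 ± 0.69 (SE, adjusted p = 0.699).

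**Figure D4:**
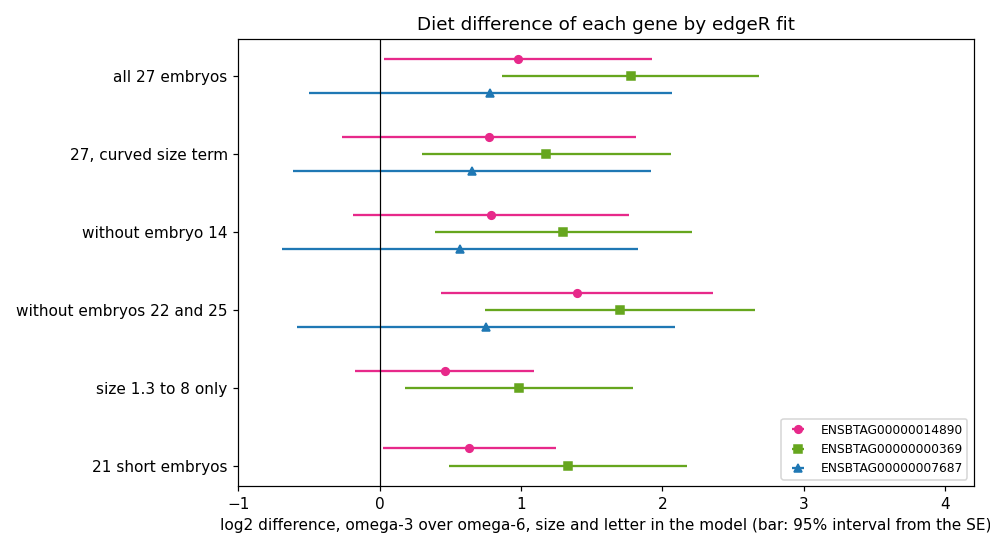
Difference between diets (log2, omega-3 over omega-6) for each gene from edgeR fits with size number and letter in the model. Bars are approximate 95% intervals, 1.96 SE on each side, narrower than the test implies and not adjusted for the number of genes tested. All estimates lie above 0, from 0.46 to 1.77, and none passed an adjusted p of 0.05. The genes were chosen as clearly counted in long embryos, all omega-3, which can favour this sign in fits with long embryos. ENSBTAG00000007687 is missing where it did not pass the low-count filter.

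The rise with size was compared between diets directly. Fitted apart, the log2 increase per doubling of the size number was 1.97 ± 0.30 (SE, n = 16) in omega-3 and 2.29 ± 0.57 (n = 11) in omega-6 embryos for ENSBTAG00000007687. It was 1.55 ± 0.26 and 1.67 ± 0.34 for ENSBTAG00000014890, and 0.95 ± 0.19 and 0.85 ± 0.36 for ENSBTAG00000000369. The omega-3 values include the 6 long embryos, which omega-6 lacks. In the 10 short omega-3 embryos the slopes were 1.97 ± 0.41, 1.18 ± 0.13 and 0.64 ± 0.19 (SE) for ENSBTAG00000007687, ENSBTAG00000014890 and ENSBTAG00000000369, so that all 3 estimates were shallower than in omega-6. Without embryos 22 and 25 the omega-6 slopes were 2.14 ± 0.62, 1.65 ± 0.22 and 1.12 ± 0.42 (SE, n = 9). The difference in slope (omega-3 minus omega-6) was tested in the 21 short embryos, where edgeR called 0 of 11534 genes (0%; 505 at an unadjusted p below 0.05) and DESeq2 called 1, which was none of these. The difference was -0.51 ± 0.36 for ENSBTAG00000014890 and -0.30 ± 0.44 for ENSBTAG00000000369 (SE, edgeR adjusted p = 0.84 and 0.853). The second was 0.20 ± 0.52 without the smallest embryo. For ENSBTAG00000007687 the fit without the low-count filter gave -0.49 ± 0.92 (adjusted p = 0.958). Its approximate 95% interval (1.96 SE on each side) ran from -2.29 to 1.30. The intervals in the main fit were -1.21 to 0.20 for ENSBTAG00000014890 and -1.17 to 0.56 for ENSBTAG00000000369. Intervals this wide leave room for unlike slopes, so agreement between diets could not be shown for any of the 3 genes. Without embryos 22 and 25 the differences were -0.51 ± 0.28 for ENSBTAG00000014890 and -0.63 ± 0.50 for ENSBTAG00000000369.

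Embryos lettered m and f were compared with size and diet in the model. The edgeR test called 49 of 11919 genes (0.411%), and 0 of the 3 genes were among them. The log2 differences, m over f, were -0.28 ± 0.50 for ENSBTAG00000007687, -0.36 ± 0.41 for ENSBTAG00000014890 and -0.19 ± 0.40 for ENSBTAG00000000369 (SE, adjusted p = 0.999 for each). Without embryo 07, the one that went against its letter, the differences were -0.40 ± 0.52, -0.46 ± 0.41 and -0.27 ± 0.42, and without embryos 22 and 25 they were -0.31 ± 0.51, -0.68 ± 0.40 and -0.08 ± 0.41 (edgeR adjusted p from 0.754 to 0.9999 over these 6 values).

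How far the genes moved together was described by Pearson's r of log2(CPM + 0.5) over the 27 embryos, with no test, since all 3 were chosen for one pattern. Here r was 0.92 between ENSBTAG00000007687 and ENSBTAG00000000369, 0.881 between ENSBTAG00000007687 and ENSBTAG00000014890, and 0.799 between the last 2. By Spearman's rho of CPM the closest pair was another: 0.853 between ENSBTAG00000007687 and ENSBTAG00000014890, 0.779 between ENSBTAG00000007687 and ENSBTAG00000000369, and 0.7 between the last 2. After a straight line on log2 size number was taken from each gene, an alternative added after the values were seen, r was 0.823, 0.666 and 0.513. Which pair moved most closely together thus depended on the measure, while ENSBTAG00000000369 and ENSBTAG00000014890 had the lowest value by each of the 3 measures. Such values were not particular to the 3 genes. Of 11918 other tested genes, 184 had r above 0.8 with ENSBTAG00000007687, 100 with ENSBTAG00000014890 and 134 with ENSBTAG00000000369, before size was removed.

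Among the 11918 other tested genes, the 5 most like ENSBTAG00000007687 were ENSBTAG00000004553 (r = 0.948), ENSBTAG00000012066 (0.939), ENSBTAG00000016723 (0.936), ENSBTAG00000019916 (0.931) and ENSBTAG00000013363 (0.927). The 5 most like ENSBTAG00000014890 were ENSBTAG00000016723 (r = 0.9), ENSBTAG00000012749 (0.892), ENSBTAG00000021102 (0.891), ENSBTAG00000015241 (0.89) and ENSBTAG00000007687 (0.881). For ENSBTAG00000000369 they were ENSBTAG00000007187 (r = 0.93), ENSBTAG00000012066 (0.929), ENSBTAG00000013298 (0.921), ENSBTAG00000007687 (0.92) and ENSBTAG00000020527 (0.918). ENSBTAG00000016723 and ENSBTAG00000012066 each stood on 2 of these lists. ENSBTAG00000016723 was itself nearly absent in the 10 smallest embryos (0 to 0.495 CPM) and had 1.64 to 7.08 CPM in the long ones. Likeness in shape did not mean a like range: ENSBTAG00000004553 went from a median of 310 CPM in the 10 smallest to 940 CPM in the long embryos, a far smaller proportional rise from a high base. The lists depended on the measure. By Spearman's rho of CPM, 2, 1 and 2 of the 5 genes remained among the 5 most alike for ENSBTAG00000007687, ENSBTAG00000014890 and ENSBTAG00000000369.

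The pattern itself was shared by few genes. Of 19994 genes, 50 (0.25%) had a median below 0.5 CPM in the 10 smallest embryos and at least 1 CPM in 4 or more of the 6 long ones. ENSBTAG00000000369 and ENSBTAG00000007687 were among them, which restates how they were chosen. ENSBTAG00000014890 was not, because its median of 1.05 CPM in the smallest embryos was above the limit. With at least 1 CPM required in all 6 long embryos 22 genes were left, and with 2 CPM in 4 of them 15, and both genes were among them each time. The opposite pattern, a median below 0.5 CPM in long embryos and at least 1 CPM in 7 or more of the 10 smallest, was found in 34 genes, in 3 when all 10 of the smallest were required and in 8 at 2 CPM.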

How the data were processed

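The authors deposited 1 table per embryo with the raw read count of each Ensembl gene identifier (stranded libraries and single reads of 100 bp per the labels' protocols; STAR and featureCounts per the submitters' processing notes). Genome build, annotation, strand setting and the handling of reads shared by gene copies are not given in the sources used. Levels are CPM of the file total, with exact binomial (Clopper-Pearson) 95% intervals. Tests used edgeR 4.0.16 in R 4.3.3 over all genes: genes were kept by filterByExpr with the groups compared (at least 10 counts, 15 in total and a proportion of 0.7), TMM scaling (factors 0.773 to 1.09), glmQLFit, two-sided glmQLFTest and Benjamini-Hochberg adjustment, with a call at an adjusted p below 0.05. SE is the size of the log2 difference over the square root of F. Intervals of log2 differences are 1.96 SE on each side, a normal approximation. DESeq2 1.42.0 was an alternative. The tests were checked on simulated counts. The genes, lists and alternatives were chosen with earlier results of these data known. Named genes were the 3 members and the 5 most alike to each by Pearson's r. ENSBTAG00000045750 was named besides these, only to check the letters, and was also chosen with earlier results known. Planned lists of marker and elongation genes were not used, because identifiers could not be paired with names.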

Additional observations from a re-analysis of the deposited data

Results flagged for a closer look

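Of 6 sets of values examined (3 genes in the long and the short omega-3 embryos), 4 held an embryo far from the rest of its group. Chance does so in about 1 set in 20 where values are normally distributed and have no order. Neither holds here. In ENSBTAG00000007687 of short omega-3 embryos the SD exceeded the mean (1.21 ± 2.19, SD). Embryo 11, itself flagged in that set, weighs on this: the mean was 0.55 CPM without it. The genes were also chosen for rising with size, which tends to place the largest short embryo on top. Long embryo 16 had 117.9 CPM of ENSBTAG00000014890, with 45.7 CPM in the next. Short omega-3 embryo 11, the largest of its class at size number 9.5, stood apart in all 3 genes. It had 7.19 CPM of ENSBTAG00000007687 (next 1.77), 18.4 CPM of ENSBTAG00000014890 (next 8.85) and 4.55 CPM of ENSBTAG00000000369 (next 2.29). Its 3 values are from 1 library and so are not independent. The 11 omega-6 embryos were not examined in this way.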

How the results depend on the processing

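No paired analysis was possible because embryo numbers do not repeat across groups. For ENSBTAG00000007687 the smallest size number with the gene on was 4.4 at 0.5 CPM, 10 counts or 10% of its long median, and 7.7 at 2 CPM or 50% of that median, with the last embryo below at 8. For ENSBTAG00000014890 it was 2.6 at 2 CPM (last below 4.5), 0.4 at 10 counts (none below), 3.7 at 10% (last below 4.9) and 9.5 at 50% (last below 20.3), and at 0.5 CPM the last below was 0.4. For ENSBTAG00000000369 it was 0.4 at 0.5 CPM, 10 counts or 10%, 5.5 at 2 CPM and 9.5 at 50% (last below 10.5 in both). TMM-scaled CPM changed none of the sizes read at 1 CPM over all 27 embryos. Within omega-6 it moved the first embryo with ENSBTAG00000014890 on from 2.3 to 2.5. Genes sharing the on pattern numbered 22 and 15 under the stricter limits. Of the 5 most alike genes, 2, 1 and 2 remained by Spearman's rho, 3 (ENSBTAG00000007687) and 2 (ENSBTAG00000014890) after removal of size, and 2 (ENSBTAG00000014890) and 3 (ENSBTAG00000000369) without embryo 16. Diet calls at equal size were 0 to 0 with each embryo left out in turn, an alternative added later, and the difference of ENSBTAG00000000369 ran from 1.30 to 2.0. The slope difference had 1 call without the low-count filter and 1 with DESeq2, and that of ENSBTAG00000000369 was 0.20 without embryo 14. Calls between m and f were 86 with DESeq2, 78 without embryo 07 and 100 without embryos 22 and 25, the last added later. The causes of these shifts were not tested. Depth limits ENSBTAG00000007687 most, with 3 or fewer counts in 10 of 27 embryos.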
